A study of Homo sapiens with 9 samples.

Results

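Long intergenic noncoding RNAs (lincRNAs) expressed in A549 cells are described here across 3 plasmid groups. The members are genes that the deposited annotation types as lincRNA and that hold at least 450 counts summed over the 9 libraries. NEAT1, MALAT1, genes with SNHG names, the lncRNAs carried by the plasmids (LINC00996 and AP001189.3) and the chromosomal regions around those loci were left out. By this rule 174 of 58735 genes were members. Of 7629 lincRNA genes, 7603 stayed after the exclusions, and 4065 of these had no count in any library while 3364 had at least 1 count but fewer than 450. Before the exclusions 182 lincRNAs reached the minimum, of which 4 were left out by single name, 4 by an SNHG name and 0 by region alone. The members were selected on their summed counts, so their being detected is not a result.

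LincRNAs are transcripts without a long open reading frame that lie outside protein-coding genes. Some are bound by proteins and act in the cytoplasm or at chromatin, some are precursors of microRNAs or small nucleolar RNAs, and for many the act of transcription next to a coding gene is the studied feature. In lung adenocarcinoma cells they have been described among p53 targets, hypoxia-responsive transcripts and transcripts that accompany proliferation.

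A549 is an established human lung adenocarcinoma line. In the PC3 group, which takes its name from a control plasmid and not from the prostate line, the cells were transfected with control plasmid, in the L996 group with a LINC00996 expression plasmid, and in the RP11 group with an AP001189.3 expression plasmid. All 3 groups were transfected with jetPRIME, and each holds 3 libraries of poly(A)-selected RNA read as paired ends of 150 bp. The treatment labels name the control plasmid PC3.1, PC3.2 and PC3.3 in the 3 control libraries, whereas the study's text names PC3.1 alone. The study's text speaks of extractions in triplicate, and a general methods text supplied with it speaks of 2 biological replicates per condition, which does not match the 3 libraries held here. It is therefore not settled that the libraries came from separate cultures, and p-values measure the spread between these samples, which may be technical. LINC00996 held 9, 8 and 4 counts in PC3, 5239, 4373 and 5952 in L996 and 8, 7 and 8 in RP11. AP001189.3 held 0, 2 and 1 counts in PC3, 0, 0 and 0 in L996 and 1660, 1931 and 2378 in RP11. Each plasmid lncRNA was therefore high in the 3 libraries labelled with it and near 0 in the other 6.

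The libraries held 15272450 to 18125447 counts, and the members took 0.186% to 0.202% of them. Every member had at least 1 count in every library. Levels are given as CPM, counts scaled by TMM to a common library total, and levels of different genes are compared only as FPKM, which are also divided by gene length. In bulk RNA, fewer cells with a transcript and less of it per cell cannot be told apart.

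L996 replicate 1 stood apart from its group. Over the members, the chi-square of counts per member was 4.48 between L996 replicates 1 and 2 and 6.04 between 1 and 3, but 2.31 between 2 and 3. In PC3 the same value ran from 1.94 to 2.94 and in RP11 from 1.98 to 2.41, so no pair of replicates differed by counting noise alone. Across the members, which are not independent replicates, Spearman's rho of CPM relative to the mean of the libraries with GC content was 0.33 in L996 replicate 1, -0.22 in replicate 2 and -0.41 in replicate 3. It was 0.00, -0.22 and -0.18 in PC3 and 0.32, 0.19 and 0.10 in RP11. Over 15641 genes the values in L996 were 0.46, -0.26 and -0.46, so the spread with GC content was not limited to lincRNAs. The cause of this spread was not tested, and the counts below are also given with an offset for GC content and, in the L996 comparisons, without L996 replicate 1.

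The cells carried the markers of A549. The 7 A549 genes KRT7, KRT8, KRT18, KRT19, CDH1, AKR1B10 and AKR1C1 summed to 9720, 9680 and 9720 CPM in PC3, 13000, 10300 and 10300 in L996 and 10200, 10500 and 10500 in RP11. Of these KRT18 had the highest mean FPKM in PC3, 682, followed by KRT8 at 575. The sum hides genes that differed in opposite directions in L996. CDH1 was at 320, 321 and 311 CPM in PC3, 161, 171 and 181 in L996 and 306, 287 and 280 in RP11, and AKR1B10 at 715, 696 and 739 in PC3, 1380, 1380 and 1360 in L996 and 652, 747 and 707 in RP11. The L996 libraries were thus the 3 lowest in CDH1 and the 3 highest in AKR1B10. They were also the 3 lowest in KRT19, at 293, 298 and 298 CPM in PC3, 269, 204 and 201 in L996 and 295, 293 and 278 in RP11, and in KRT8 both plasmid groups lay above PC3, at 4100, 3980 and 3880 CPM in PC3, 6110, 4340 and 4300 in L996 and 4490, 4610 and 4580 in RP11. CDKN2A and CDKN2B, which A549 has lost, were at 0 in all 9 libraries, and MTAP beside them had 6 to 18 counts. The alveolar genes SFTPC, SFTPB and NKX2-1 summed to 1 to 11 counts, the leukocyte genes PTPRC and CD3E to 0 to 4, and HBB and HBA1 were at 0. Of the endothelial markers PECAM1 had 45 to 145 counts and VWF 0 to 3. PECAM1 was at 7.35, 8.65 and 8.34 CPM in PC3, 2.46, 3.49 and 3.14 in L996 and 5.14, 4.68 and 4.12 in RP11. Its L996 libraries were the 3 lowest and its PC3 libraries the 3 highest, while VWF was near 0 throughout. Of the fibroblast markers COL1A1 was at 20.4, 22.5 and 19.7 CPM in PC3, 15.1, 13.9 and 11.9 in L996 and 19, 21.3 and 18.2 in RP11, again with the L996 libraries lowest and without overlap, and DCN had 0 or 1 counts.

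Among the members, 18 were matched to mature microRNAs on their own strand. PVT1, which overlaps the microRNA genes MIR1204, MIR1205, MIR1206 and MIR1207, is not among these 18. Sequences are shown for the 5 hosts on the fixed list of microRNA host transcripts that were called in a comparison below. MicroRNAs are short RNAs cut from such precursors, and the seed, bases 2 to 8, pairs with target transcripts. These libraries measured the polyadenylated hosts and not the mature microRNAs. The mature sequences of the 5 hosts are shown because they are what those transcripts are best known for, from RefSeq on GRCh38.p14, with the seed in capitals.
hsa-miR-22-3p: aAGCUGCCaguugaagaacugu
hsa-miR-22-5p: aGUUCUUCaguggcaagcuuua
hsa-miR-34a-5p: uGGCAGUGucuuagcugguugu
hsa-miR-34a-3p: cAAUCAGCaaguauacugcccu
hsa-miR-146a-5p: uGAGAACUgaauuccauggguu
hsa-miR-146a-3p: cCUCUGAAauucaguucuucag
hsa-miR-3142: aAGGCCUUucugaaccuucaga
hsa-miR-210-3p: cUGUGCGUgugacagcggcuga
hsa-miR-210-5p: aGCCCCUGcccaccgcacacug
hsa-miR-503-5p: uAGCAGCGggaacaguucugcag
hsa-miR-503-3p: gGGGUAUUguuuccgcugccagg

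MIR22HG holds miR-22 in an exon (chromosome 17, 1713914 to 1713935 for the 3p arm, minus strand), and MIR34AHG holds miR-34a in an exon (chromosome 1, 9151735 to 9151756 for the 5p arm, minus strand). In MIR3142HG, miR-146a lies in an exon (chromosome 5, 160485372 to 160485393 for the 5p arm, plus strand) and miR-3142 in an intron. In MIR210HG and MIR503HG the microRNAs lie in an intron (chromosome 11, 568112 to 568133 for miR-210-3p, and chromosome X, 134546371 to 134546393 for miR-503-5p, both on the minus strand). No 2 of the 11 arms share a seed.

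Start-site sequence was matched for 91 members in RefSeq's table for GRCh38.p14, and for 49 of them the RefSeq start lay within 50 bases of the start in the files. Each promoter runs from 250 bases before to 50 after the start. The following 5 belong to called members that are named below by rule or list and whose starts match, and they carry in capitals each match to the GC box (GGGCGG, or CCGCCC on the other strand), the CCAAT box (CCAAT or ATTGG) and the antioxidant response element (ARE; TGACNNNGC or GCNNNGTCA, which can overlap an AP-1 match).
MIR210HG: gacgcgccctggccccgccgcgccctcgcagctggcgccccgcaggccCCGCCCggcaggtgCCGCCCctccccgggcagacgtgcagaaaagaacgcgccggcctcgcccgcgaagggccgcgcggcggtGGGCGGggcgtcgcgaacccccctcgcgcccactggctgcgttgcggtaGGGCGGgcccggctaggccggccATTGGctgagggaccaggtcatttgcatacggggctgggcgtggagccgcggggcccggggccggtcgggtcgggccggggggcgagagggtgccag
MIR503HG: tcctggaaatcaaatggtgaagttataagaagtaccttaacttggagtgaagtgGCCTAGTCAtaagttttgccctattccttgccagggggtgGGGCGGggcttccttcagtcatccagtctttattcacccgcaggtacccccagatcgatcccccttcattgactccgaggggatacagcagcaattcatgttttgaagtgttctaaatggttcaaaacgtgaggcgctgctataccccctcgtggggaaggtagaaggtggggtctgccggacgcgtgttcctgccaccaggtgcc
DIO3OS: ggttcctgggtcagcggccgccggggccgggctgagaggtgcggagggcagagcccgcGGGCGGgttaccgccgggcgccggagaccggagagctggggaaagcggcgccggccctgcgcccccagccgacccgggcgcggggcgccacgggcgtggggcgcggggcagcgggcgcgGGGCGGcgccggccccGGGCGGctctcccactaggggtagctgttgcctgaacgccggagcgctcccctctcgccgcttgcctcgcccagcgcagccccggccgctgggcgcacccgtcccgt
LINC00857: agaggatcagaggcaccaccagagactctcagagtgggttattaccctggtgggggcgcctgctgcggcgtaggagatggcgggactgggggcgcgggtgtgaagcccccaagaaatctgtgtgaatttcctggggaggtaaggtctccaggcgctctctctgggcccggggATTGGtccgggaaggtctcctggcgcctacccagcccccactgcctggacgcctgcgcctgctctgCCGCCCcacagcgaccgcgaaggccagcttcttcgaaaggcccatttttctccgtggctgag
RAB30-AS1: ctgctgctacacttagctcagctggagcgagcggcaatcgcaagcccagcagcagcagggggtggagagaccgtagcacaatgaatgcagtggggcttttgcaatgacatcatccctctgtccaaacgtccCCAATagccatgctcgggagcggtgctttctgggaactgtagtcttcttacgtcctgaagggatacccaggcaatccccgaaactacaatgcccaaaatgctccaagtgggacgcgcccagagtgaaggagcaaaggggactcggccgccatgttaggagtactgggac

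The promoters of MIR210HG (chromosome 11, 568408 to 568707, minus strand) and DIO3OS (chromosome 14, 101560373 to 101560672, minus strand) were the richest in G and C of the 5, at 80.0% and 81.7%, with 4 and 3 GC boxes. The MIR503HG window (chromosome X, 134546581 to 134546880, minus strand) also contains both arms of a neighbouring microRNA, miR-424. LINC00857 (chromosome 10, 80207460 to 80207759, plus strand) had 1 GC box and 1 CCAAT box, and RAB30-AS1 (chromosome 11, 83071816 to 83072115, plus strand) had 1 CCAAT box and no GC box. Over the 49 matched member promoters the GC box was found in 63.3%, against 45.0% of all 35116 promoters in the table, the CCAAT box in 42.9% against 34.6%, and the TATA box (TATAAA or TTTATA) in 4.08% against 11.5%. The ARE was found in 18.4% against 13.3%, the kB motif (GGAANNTCC or GGANNTTCC) in 0 of 49 against 4.56%, and the ISRE (GAAANNGAA or TTCNNTTTC) in 12.2% against 8.11%. The E-box (CACGTG on both strands) was in 8.16% against 7.26%, the CRE (TGACGTCA on both strands) in 2.04% against 1.85%, and the AP-1 motif, TGACTCA with its reverse complement TGAGTCA, in 4.08% against 4.95%. The amino acid response motif CARE (TGATGNAA or TTNCATCA) was in 0 of 49 against 3.62%. A match describes letters in this window only.

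In the control group 1 lincRNA stood far above the others. NORAD, a cytoplasmic RNA that binds Pumilio proteins and is linked to genome stability (chromosome 20, 36045622 to 36050960, minus strand), was at 73.3, 75 and 67.3 FPKM in the 3 PC3 libraries. Over all 9 libraries it held 20% of all member counts, 59080 of 296077, and the 10 members with most counts held 38.2%. In the 3 PC3 libraries its share was 19.8%, 20.4% and 19.5%. The median member was at 2.02 FPKM in PC3, 9 members reached 10 FPKM, 27 were under 1 and the lowest was at 0.384.

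IGFL2-AS1, which lies antisense to the IGFL2 region (chromosome 19, 46189166 to 46203083, minus strand), came next with 41.6, 39.6 and 37.2 FPKM. AL157937.1 (chromosome 9, 22203990 to 22214672, minus strand) was at 33.6, 31.8 and 33.3 FPKM. The ranges of IGFL2-AS1 and AL157937.1 in PC3 did not overlap each other or that of NORAD. The next 3 by mean FPKM, AC245041.1 (13.5 ± 0.764, SD, n = 3), PURPL (13.5 ± 0.66) and AC008440.3 (12.7 ± 1.37), did not differ beyond their spread. PURPL (chromosome 5, 27472292 to 27496401, plus strand) is a p53 target that keeps p53 levels low. ITGB1-DT, the divergent transcript of the integrin gene ITGB1 (chromosome 10, 32958845 to 33082102, plus strand), was at 12, 11.5 and 11.1 FPKM. EBLN3P, a pseudogene of bornavirus nucleoprotein origin (chromosome 9, 37079857 to 37090507, plus strand), was at 11.2, 11.5 and 11.1. These 2 overlapped, and so did the last of the 10, AC254633.1 at 10.7 ± 1.92 FPKM and AC007785.1 at 9.46 ± 1.02.

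**Figure D1:**
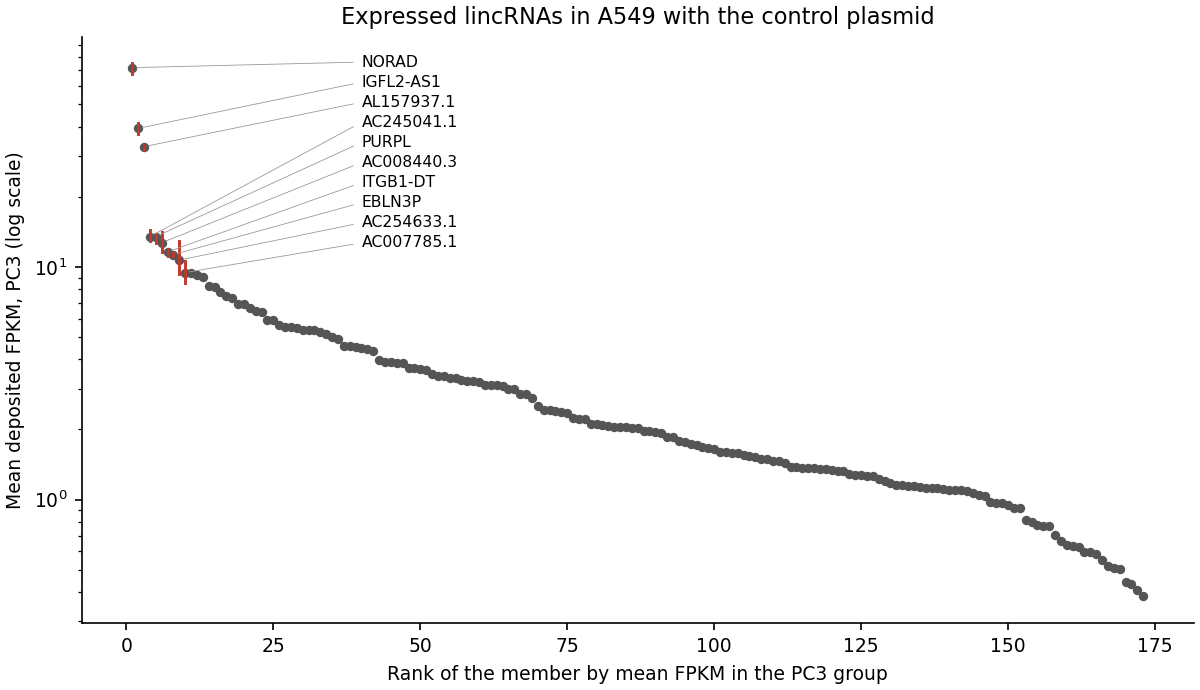
Mean deposited FPKM in the 3 PC3 libraries (y axis, log scale) of the expressed lincRNAs ranked from highest to lowest (x axis), with lines from the lowest to the highest library for the 10 highest. NORAD at 71.9 FPKM, IGFL2-AS1 at 39.4 and AL157937.1 at 32.9 stand above a slope that ends at 0.384.

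Of these 10 transcripts, 8 were not called in any of the 3 comparisons. For scale, 39.7% of the 15641 genes tested in all 3, and 29.3% of members, were called in at least 1. NORAD was at 394, 403 and 363 CPM in PC3, 391, 420 and 417 in L996 and 374, 381 and 360 in RP11, and the largest of its 3 log2 differences was 0.13 (L996 vs RP11, SE 0.08, edgeR's adjusted p = 0.265). IGFL2-AS1 was at 73.3, 69.8 and 65.7 CPM in PC3, 68.3, 63.2 and 67 in L996 and 66.6, 71.4 and 68.4 in RP11, with groups that overlap in every comparison. PURPL was at 33.8, 37.0 and 36.8 CPM in PC3 and at 27.5, 31.5 and 32.8 in RP11. Its RP11 libraries lay below its PC3 libraries without overlap, yet it was not called (log2 -0.23, SE 0.08, edgeR's adjusted p = 0.0546), though it passed the threshold under 5 of 15 alternatives. The 2 that were called, AC245041.1 and AC008440.3, are described below.

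The median member total was 895.5 counts, against 2735 over all genes tested for L996 vs PC3, and members were accordingly measured with less precision. In PC3 the median coefficient of variation between replicates was 12.3% over the members, where counting alone gives 10.2%, against 8.36% over all genes tested. In L996 it was 15.5%, with 9.81% from counting and 14.1% over all genes, and in RP11 11.5%, with 10.2% and 7.33%. The members just inside the minimum were AC245297.3 and LINC01503, each with 464 counts, and AC083837.1 with 465. Just outside were PICART1 with 448, LINC01239 with 430 and AL355001.2 with 425. All 174 members passed the filter on low counts in each comparison, with no fewer than 11 counts in any library of the L996 comparisons and 21 in that of RP11 vs PC3.

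The first comparison asks which lincRNAs differ between A549 with the LINC00996 plasmid and A549 with the control plasmid. In L996, 13 members were called higher than in PC3 and 18 lower, and 143 were not called. Among the higher ones were AC084033.3, AL365203.2 and CRNDE, at 2.23, 2.04 and 1.63 times the control level, and among the lower ones BX255923.2, AC083837.1, AC079466.1 and LINC01559, which were lower by 4.07, 3.45, 2.97 and 2.61 times. Called means an adjusted p under 0.05 in edgeR's quasi-likelihood test over all genes tested. Members named for the smallest adjusted p in a comparison had to show no overlap between its groups. For them that lack of overlap is therefore not a further result. The members called were 17.8% of 174, against 22.3% of the 16097 genes tested, with 7.47% higher against 10.7% and 10.3% lower against 11.6%. The share of members called was thus not above that of genes in general, and no pattern particular to lincRNAs is read from it. Of the 86 members with at least 900 counts 23.3% were called. All genes, at 22.3%, were not held to that minimum, so these shares are not matched for depth. The median log2 fold change was 0.05 over the members and 0.01 over all genes, and the median size of the change was 0.25 and 0.26. Changes of members ran from -2.02 (BX255923.2) to 1.16 (AC084033.3), and the median SE was 0.19 against 0.15 over all genes.

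The count of members called higher in L996 changed more between fits than the count called lower. Without L996 replicate 1 there were 20 higher and 20 lower, while 33.2% of all genes were called. The members called higher fell to 6 without L996 replicate 2, 6 without PC3 replicate 1 and 5 without PC3 replicate 2 or PC3 replicate 3. Those called lower were 11 without PC3 replicate 2. The share of all genes called, in both directions together, fell as well, to 15%, 12.6%, 11.6% and 13.1% without these 4 libraries. Calls were thus also lost among other genes. Whether the members called higher lost more than other genes was not tested. With a GC content offset there were 23 higher and 23 lower, and 37.3% of all genes were called.

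AC079466.1 (chromosome 19, 28606688 to 28615229, plus strand) had the smallest p of the members. It was at 31.2, 28.0 and 27.4 CPM in PC3, 8.87, 9.45 and 10.9 in L996 and 24.4, 24.6 and 26.0 in RP11. All 3 L996 libraries lay far below the other 6, and those of RP11 lay just below those of PC3. Against PC3 the log2 fold change was -1.57 (SE 0.13, edgeR's adjusted p = 1.08e-05). It overlaps 3 other noncoding genes, so part of its counts may belong to them.

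BX255923.2 (chromosome 9, 41100794 to 41106229, minus strand), which overlaps the FRG1HP pseudogene in a duplicated part of the chromosome, was at 5.17, 3.73 and 3.68 CPM in PC3, 1.26, 0.951 and 0.865 in L996 and 5.61, 6.89 and 4.0 in RP11. The L996 libraries were the 3 lowest, and PC3 and RP11 overlapped. Its log2 fold change in L996 was -2.02 (SE 0.27, edgeR's adjusted p = 0.000326), the largest fall of any member. AC083837.1 (chromosome 8, 78837529 to 78840522, plus strand) was also lowest in L996, with 3.0, 4.17 and 3.16 CPM in PC3, 0.602, 1.14 and 1.24 in L996 and 4.37, 4.36 and 6.0 in RP11, and here RP11 lay above PC3 without overlap. Its log2 fold change was -1.79 (SE 0.31, edgeR's adjusted p = 0.0017), from 11, 18 and 23 counts in the L996 libraries.

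AL391056.1 (chromosome 9, 129575409 to 129584556, plus strand) was at 20.7, 18 and 19 CPM in PC3, 10.5, 10.3 and 9.90 in L996 and 16.9, 15.9 and 17.6 in RP11. Replicates of each group were tight, and L996 was the lowest group without overlap (log2 -0.91, SE 0.13, edgeR's adjusted p = 0.000398). AC008440.3 (chromosome 19, 53864763 to 53866140, plus strand), the sixth most abundant member by FPKM in PC3, was at 7.94, 6.47 and 6.90 CPM in PC3, 4.0, 3.17 and 3.35 in L996 and 7.74, 5.85 and 9.03 in RP11. In L996 it fell by 1.02 on the log2 scale (SE 0.18, edgeR's adjusted p = 0.00207), with all 3 libraries below the other 6. LINC01559 (chromosome 12, 13371089 to 13387167, minus strand) was at 4.18, 6.04 and 5.64 CPM in PC3, 1.86, 1.4 and 2.76 in L996 and 3.19, 2.6 and 2.97 in RP11. Both plasmid groups lay below PC3, and they overlapped each other.

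On the higher side, AL365203.2 (chromosome 10, 32887255 to 32889311, minus strand) was at 9.17, 7.28 and 6.50 CPM in PC3, 12.2, 17.6 and 17.1 in L996 and 7.74, 8.32 and 6.61 in RP11. L996 was above both other groups, which overlapped, and L996 replicate 1 was the lowest of its group. Its log2 fold change was 1.03 (SE 0.18, edgeR's adjusted p = 0.0019). AC084033.3 (chromosome 12, 57931528 to 57936175, minus strand) was at 2.70, 2.74 and 2.59 CPM in PC3, 7.34, 5.2 and 5.41 in L996 and 3.54, 3.51 and 3.70 in RP11. The 3 groups did not overlap, with L996 highest and PC3 lowest (L996 vs PC3 log2 1.16, SE 0.21, edgeR's adjusted p = 0.00199). AC084033.3 overlaps the coding gene ATP23 on the opposite strand, and since no source used here states strand-specific counting, their reads cannot be told apart.

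CRNDE, a transcript raised in many carcinomas and first described in colorectal neoplasia (chromosome 16, 54845189 to 54929189, minus strand), was at 7.35, 7.84 and 9.03 CPM in PC3, 13.7, 13.0 and 12.9 in L996 and 9.57, 8.97 and 11.1 in RP11. L996 lay above both other groups, and RP11 overlapped PC3 at its lower end. In L996 its log2 fold change was 0.71 (SE 0.14, edgeR's adjusted p = 0.00368).

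AC048341.2 (chromosome 12, 62603909 to 62604399, plus strand) was at 3.76, 3.48 and 2.99 CPM in PC3 and 5.25, 5.07 and 5.79 in L996. RAB30-AS1, which starts beside RAB30 (chromosome 11, 83072066 to 83106719, plus strand), was at 2.88, 2.61 and 2.76 in PC3 and 4.05, 5.07 and 4.33 in L996. BAIAP2-DT, the divergent transcript of BAIAP2 (chromosome 17, 81029130 to 81034881, minus strand), was at 10.1, 10.8 and 9.55 in PC3 and 22.2, 13.3 and 13.2 in L996. In each of the 3 L996 lay above PC3 without overlap, and BAIAP2-DT was far higher in L996 replicate 1 than in the others. AC048341.2 rose by 0.65 on the log2 scale (SE 0.19, edgeR's adjusted p = 0.0266), RAB30-AS1 by 0.70 (SE 0.20, edgeR's adjusted p = 0.028) and BAIAP2-DT by 0.68 (SE 0.20, edgeR's adjusted p = 0.0282). All 3 calls were lost without any single PC3 library, those of AC048341.2 and RAB30-AS1 also without L996 replicate 2, and that of AC048341.2 without L996 replicate 3 or with a gene length offset. With 1 library left out the log2 values ran from 0.56 to 0.73 for AC048341.2, from 0.61 to 0.77 for RAB30-AS1 and from 0.38 to 0.81 for BAIAP2-DT, whose lowest value was that without L996 replicate 1. In RP11 vs PC3, RAB30-AS1 (log2 0.42) and BAIAP2-DT (0.27) also lay above PC3 without overlap, and AC048341.2 (0.18) overlapped it. None of these was called there or in L996 vs RP11, where the log2 values were 0.27, 0.41 and 0.47.

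**Figure D2:**
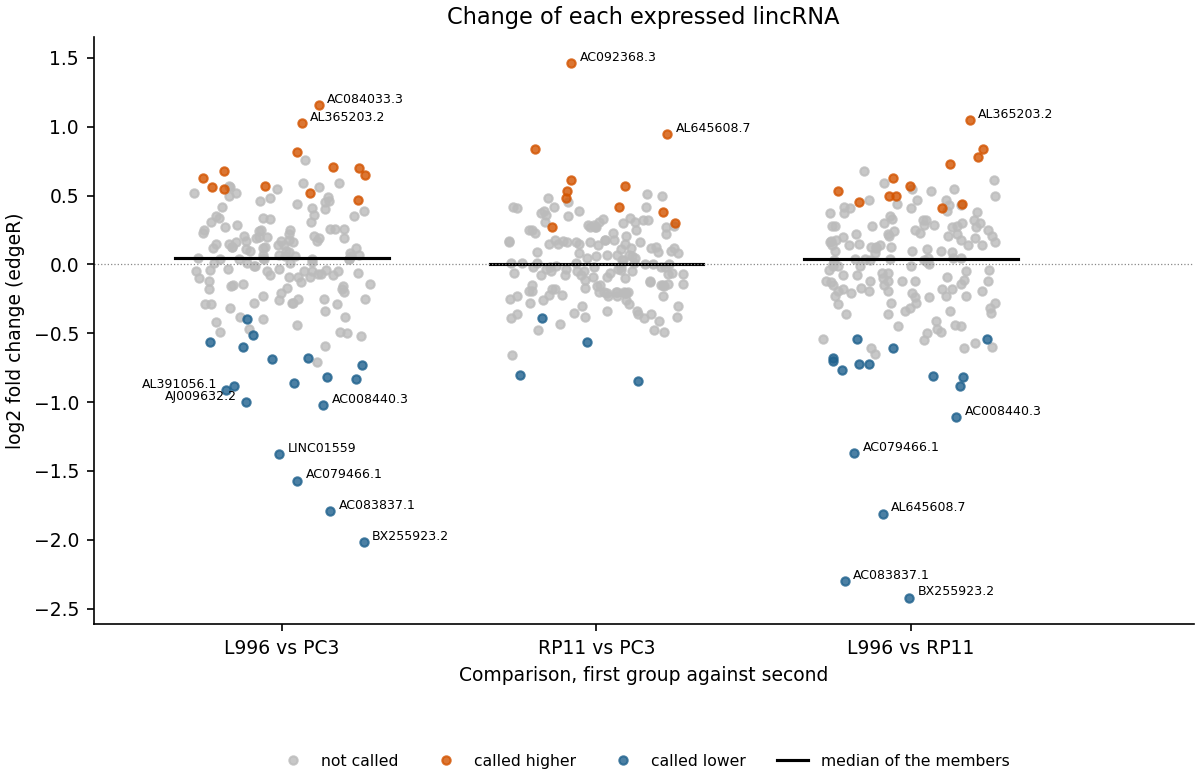
The log2 fold change of each expressed lincRNA (y axis) in the 3 comparisons (x axis, points spread sideways for view), coloured by the call of edgeR's quasi-likelihood test, with black bars at the medians of 0.05, 0.00 and 0.03. Called members reach -2.02 and 1.16 in L996 vs PC3, -0.85 and 1.46 in RP11 vs PC3, and -2.42 and 1.05 in L996 vs RP11.

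The second comparison sets the AP001189.3 plasmid against the same 3 control libraries. Here 11 members were called higher, 4 lower and 159 not at all. AC092368.3 rose most, to 2.75 times the control level, followed by AL645608.7 at 1.93 times and the microRNA host MIR503HG at 1.79 times, while LINC01559 and LINC01376 were lower by 1.8 and 1.74 times. The members called were 8.62% of 174, against 19.8% of 16023 genes tested. Of the members 6.32% were higher, against 11.4% of all genes, and 2.3% were lower, against 8.49%. The share was below that over all genes in both directions. It was 10.5% among the 86 members with at least 900 counts, a minimum not set for all genes. The median log2 fold change was 0.00 over the members and over all genes. The median size of change was 0.20 against 0.17 and the median SE 0.17 against 0.11, and at an unadjusted p under 0.05 there were 38 members. Because both plasmid groups are compared with the same control libraries, the 2 comparisons are not independent.

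These counts were also unsteady. The members called higher fell to 7 without PC3 replicate 3 and to 6 without RP11 replicate 2 or RP11 replicate 3, and those called lower fell to 2 without PC3 replicate 2, RP11 replicate 2 or RP11 replicate 3. Of all genes 16.2% were called without PC3 replicate 3, 12% without PC3 replicate 2, 11.6% without RP11 replicate 2 and 13.6% without RP11 replicate 3. Calls were thus lost over all genes, where these shares count both directions together. A gene length offset gave 7 lower, with 17.9% of all genes called. A GC content offset gave 11 higher and 5 lower, with 12 of the 15 calls shared and 14.5% of all genes called. With all 9 libraries in 1 fit, edgeR called 3 higher and 0 lower, with 20 and 8 at an unadjusted p under 0.05, and called 2.64% of all genes. DESeq2 on the 6 libraries called 12 members and 17.0% of all genes.

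AC092368.3 (chromosome 16, 46622861 to 46624451, minus strand) was at 2.35, 1.31 and 1.67 CPM in PC3, 3.07, 2.98 and 3.03 in L996 and 4.96, 3.84 and 5.88 in RP11. The 3 groups did not overlap, with RP11 highest and PC3 lowest. The log2 fold change in RP11 was 1.46 (SE 0.25, edgeR's adjusted p = 0.000107), and in L996 0.76 (SE 0.26, edgeR's adjusted p = 0.0577), which was not called but passed the threshold under 7 of 15 alternatives. LINC01376 (chromosome 2, 18986451 to 19348067, minus strand) was at 4.12, 4.23 and 4.95 CPM in PC3 and 2.89, 2.6 and 2.12 in RP11, groups that do not overlap. Its log2 fold change was -0.80 (SE 0.22, edgeR's adjusted p = 0.00899), from -0.91 to -0.69 with 1 library left out, and it was not called without RP11 replicate 3 or with all 9 libraries in 1 fit. In L996 it also lay below PC3 without overlap (log2 -0.59, SE 0.25, edgeR's adjusted p = 0.108). That was not called but passed the threshold under 3 of 15 alternatives, and L996 vs RP11 was 0.21 (SE 0.27).

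DIO3OS is transcribed opposite the deiodinase gene DIO3 in the imprinted domain of chromosome 14 (101552221 to 101560431, minus strand). It was at 3.47, 2.18 and 3.16 CPM in PC3, 3.5, 3.93 and 2.76 in L996 and 4.67, 3.90 and 4.91 in RP11. RP11 lay above PC3 without overlap, and L996 overlapped both. Against PC3 it rose in RP11 by 0.61 on the log2 scale (SE 0.22, edgeR's adjusted p = 0.0472). That call was lost without PC3 replicate 2, PC3 replicate 3 or any single RP11 library, and under 6 other settings, with values from 0.44 to 0.74.

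The third comparison, L996 vs RP11, is the test of whether the plasmid groups differ from each other. In L996, 12 members were higher than in RP11 and 16 lower, and 146 were not called. Among the lower members BX255923.2, AC083837.1 and AL645608.7 differed most, by 5.34, 4.94 and 3.51 times, and among the higher ones AL365203.2, by 2.07 times. Of the members 16.1% were called, against 21.4% of 16095 genes, with 6.9% higher against 9.38% and 9.2% lower against 12.1%. Among the 86 members with at least 900 counts the share was 22.1%, again beside all genes without that minimum. The median log2 difference was 0.03 over the members and 0.02 over all genes, and the median size of the difference was 0.28 and 0.25.

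Without L996 replicate 1, 27 members were higher and 29 lower, and 41.6% of all genes were called. The members called higher were 4 without L996 replicate 2, 7 without L996 replicate 3, 2 without RP11 replicate 1 or RP11 replicate 2, and 1 without RP11 replicate 3. Of all genes 12.8%, 20%, 11.2%, 11.8% and 11.7% were called in both directions together without these 5 libraries. Fewer genes were thus called in general here too. The share of all genes called higher alone is not given, so the sizes of the losses cannot be compared. A GC content offset gave 19 higher and 29 lower, with 36.3% of all genes called. Library size alone in place of TMM turned the balance, with 17 higher and 13 lower and 23.6% of all genes called. The median log2 difference of the members was then 0.10.

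A pair of members was called in opposite directions in the plasmid comparisons. AL645608.7 (chromosome 1, 995966 to 998051, minus strand) was at 23.9, 19.3 and 13.8 CPM in PC3, 14.0, 9.70 and 7.73 in L996 and 32.8, 39.9 and 37.3 in RP11. RP11 was above all other libraries, and L996 overlapped the low end of PC3 through its replicate 1. The log2 fold change was -0.86 in L996 (SE 0.23, edgeR's adjusted p = 0.0191), 0.95 in RP11 (SE 0.18, edgeR's adjusted p = 0.00849) and -1.81 between them (SE 0.18, edgeR's adjusted p = 4.21e-05). The call in L996 vs PC3 was lost without L996 replicate 2, PC3 replicate 1 or PC3 replicate 2, with values from -1.13 to -0.67. RP11 held 54.2% of its counts, the highest share of any member in 1 group.

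MEG3, the maternally expressed transcript of the imprinted DLK1 domain (chromosome 14, 100779410 to 100861031, plus strand), was at 57.9, 51.6 and 46.5 CPM in PC3, 40, 33.7 and 35.6 in L996 and 64.3, 64.4 and 63.9 in RP11. The 3 groups did not overlap, and RP11 was the highest. Its log2 fold change was -0.51 in L996 (SE 0.12, edgeR's adjusted p = 0.00855), 0.30 in RP11 (SE 0.07, edgeR's adjusted p = 0.00356) and -0.82 between them (SE 0.10, edgeR's adjusted p = 0.000152). The call against PC3 was lost in L996 without PC3 replicate 1 and with a gene length offset, with values from -0.59 to -0.38, and in RP11 with all 9 libraries in 1 fit.

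AC245041.1 (chromosome 10, 47970043 to 47973496, minus strand) was the member called higher with both plasmids. It was at 11, 11.9 and 10.8 CPM in PC3, 16.3, 15.9 and 17.6 in L996 and 15.8, 15.4 and 18.8 in RP11. All 6 plasmid libraries were above PC3, and the plasmid groups overlapped (L996 log2 0.56, SE 0.13, edgeR's adjusted p = 0.00808, and RP11 log2 0.57, SE 0.12, edgeR's adjusted p = 0.000887). The difference between the plasmids was -0.01 (SE 0.13). LINC01559 was the member called lower with both, at log2 -1.38 in L996 (SE 0.27, edgeR's adjusted p = 0.0033) and -0.85 in RP11 (SE 0.21, edgeR's adjusted p = 0.00396). The call in RP11 was lost with all 9 libraries in 1 fit, and L996 vs RP11 was not called (log2 -0.54, SE 0.27, edgeR's adjusted p = 0.185). AC245041.1 overlaps another member, AC245041.2, on the same strand, whose log2 values were 0.19 in L996 and 0.01 in RP11.

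Between the plasmid groups alone, OLMALINC, named for oligodendrocyte maturation (chromosome 10, 100373513 to 100454043, plus strand), was at 10.5, 9.77 and 8.65 CPM in L996 and 5.97, 6.89 and 5.76 in RP11, with PC3 at 8.35, 6.47 and 8.05. L996 was above both, and PC3 overlapped RP11 (log2 0.63, SE 0.15, edgeR's adjusted p = 0.0114), and the call was lost without RP11 replicate 1 or RP11 replicate 3, with values from 0.57 to 0.72. AC079949.2 (chromosome 12, 127147149 to 127150081, plus strand) was at 3.72, 5.52 and 5.63 CPM in L996 and 3.01, 3.12 and 2.48 in RP11. LINC01963 (chromosome 2, 216217045 to 216220192, plus strand) was at 4.11, 5.2 and 6.44 in L996 and 3.66, 3.19 and 1.94 in RP11. Both were higher in L996 without overlap, AC079949.2 by 0.78 (SE 0.22, edgeR's adjusted p = 0.0265) and LINC01963 by 0.84 (SE 0.26, edgeR's adjusted p = 0.0381). Both calls were lost without any single RP11 library, L996 replicate 2 or L996 replicate 3, and the values ran from 0.67 to 0.96 and from 0.61 to 1.04. AC084033.3 was also higher in L996 than in RP11 (log2 0.73, SE 0.19, edgeR's adjusted p = 0.0167), a call lost without any single RP11 library, with values from 0.57 to 0.82. CRNDE was higher by 0.41 (SE 0.13, edgeR's adjusted p = 0.046), from 0.35 to 0.51 with 1 library left out, and not called without any single RP11 library, L996 replicate 2 or L996 replicate 3, under DESeq2 or without a filter on low counts.

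Several of the members that were low in L996 against PC3 were low against RP11 as well. The differences from RP11 were -1.37 for AC079466.1 (SE 0.12, edgeR's adjusted p = 2.06e-05), -2.42 for BX255923.2 (SE 0.27, edgeR's adjusted p = 9.34e-05) and -2.30 for AC083837.1 (SE 0.29, edgeR's adjusted p = 0.000193). AL391056.1 differed by -0.72 (SE 0.12, edgeR's adjusted p = 0.00147) and AC008440.3 by -1.11 (SE 0.20, edgeR's adjusted p = 0.00234). AC092368.3 was lower in L996 than in RP11 (log2 -0.70, SE 0.20, edgeR's adjusted p = 0.031), a call lost without L996 replicate 2, L996 replicate 3, RP11 replicate 1 or RP11 replicate 3, with values from -0.84 to -0.54.

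**Figure D3:**
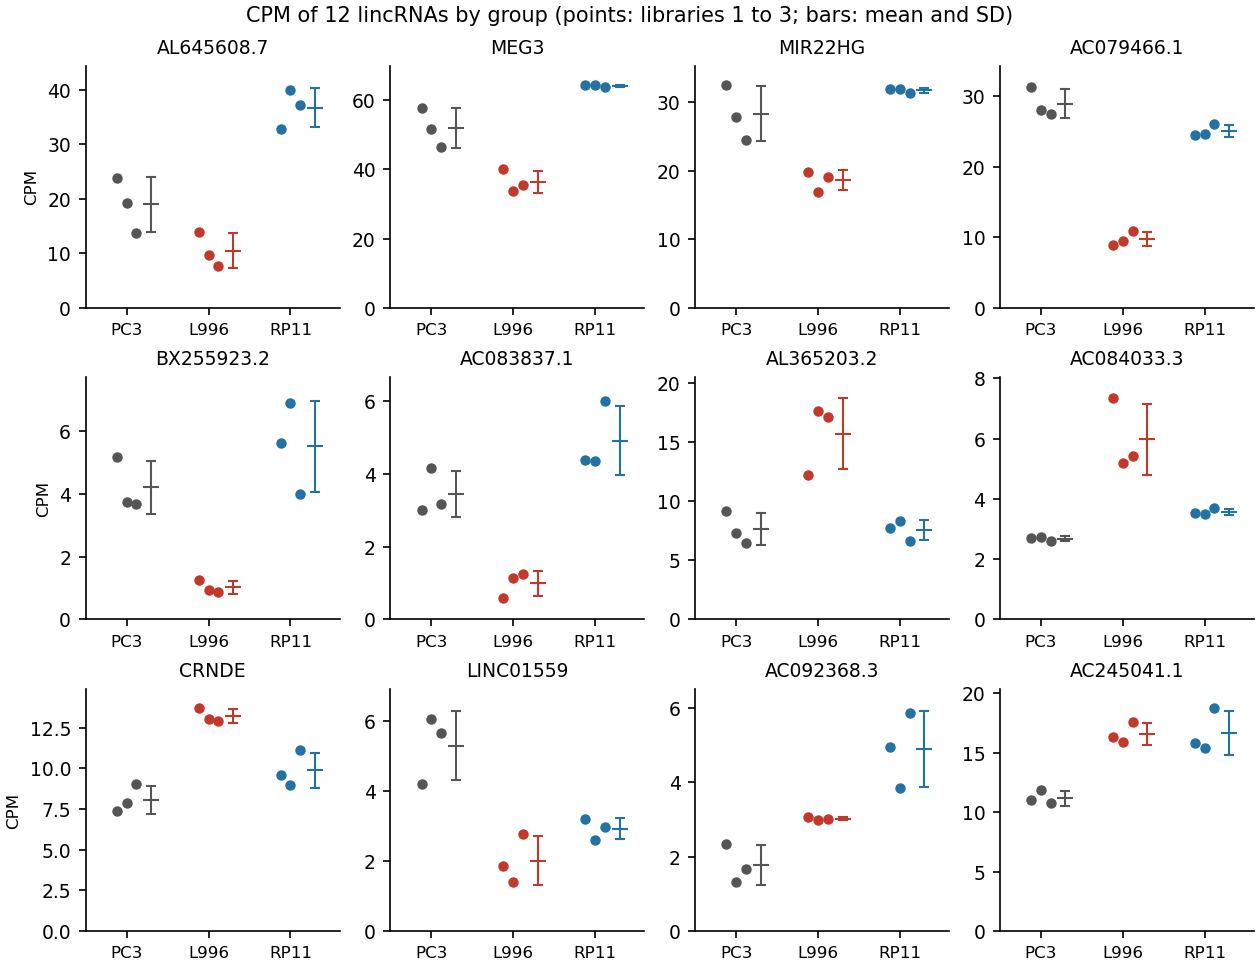
CPM (y axis, from 0) of 12 lincRNAs in the 3 libraries of PC3, L996 and RP11 (points, replicates 1 to 3 from left to right), with the mean and SD of each group beside them (cross bar and whiskers). In AC079466.1 the L996 libraries sit between 8.87 and 10.9 and the other 6 between 24.4 and 31.2, and in MEG3 the 3 groups are separate.

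In all, 51 members were called in at least 1 comparison and 123 in none, which is 29.3% of members called, against 39.7% of the 15641 genes tested in all 3 comparisons. Besides the pair with opposite directions, members lower in L996 than in both other groups were AC008440.3, AC079466.1, AC083837.1, AL391056.1, AL590004.3, BX255923.2, LINC02577, MIR22HG and MIR3142HG. Those higher in L996 than in both were AC084033.3, AC092118.1, AC092171.2, AL365203.2 and CRNDE. AC092368.3 and AC103702.2 were higher in RP11 than in both other groups, and AC009275.1 was lower in RP11 than in both. The shares of all genes with these patterns are not given, and the comparisons share libraries. Nothing particular to lincRNAs is therefore read from these patterns. No member had 90% of its counts in 1 group.

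Of 32 transcripts on the list of microRNA hosts 11 were members. Of these 5 were called in at least 1 comparison and 6 in none, near the 39.7% of all genes called in at least 1. Beside the list counts here and below stand the shares over all genes, 10.7% higher and 11.6% lower in L996 vs PC3, 11.4% and 8.49% in RP11 vs PC3, and 9.38% and 12.1% in L996 vs RP11. No list was tested against these shares. In L996 edgeR called none of these higher than in PC3 (1, MIR137HG, at an unadjusted p under 0.05, 0 by DESeq2) and 2 lower, MIR22HG and MIR3142HG, with a median log2 of 0.04 against 0.01 over all genes. In RP11, 3 were called higher, MIR34AHG, MIR210HG and MIR503HG, and none lower by edgeR's adjusted or unadjusted p or by DESeq2, with a median of 0.25 against 0.00. In L996 vs RP11, MIR22HG and MIR3142HG were lower and none higher by edgeR's adjusted or unadjusted p or by DESeq2, with a median of -0.24 against 0.02.

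MIR22HG (chromosome 17, 1711493 to 1717174, minus strand) was at 32.5, 27.8 and 24.4 CPM in PC3, 19.8, 16.9 and 19.1 in L996 and 31.9, 31.9 and 31.3 in RP11. L996 was below every library of the other groups, which overlapped. Its log2 fold change in L996 was -0.60 against PC3 (SE 0.13, edgeR's adjusted p = 0.00775) and -0.77 against RP11 (SE 0.11, edgeR's adjusted p = 0.000475). The call against PC3 was lost without PC3 replicate 1, with values from -0.70 to -0.49. Its gene overlaps WDR81 on the other strand, which was not called in any comparison.

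MIR3142HG carries miR-146a, a microRNA known to be induced through NF-kB (chromosome 5, 160438594 to 160487426, plus strand). It was at 8.94, 7.03 and 6.33 CPM in PC3, 3.67, 4.31 and 4.11 in L996 and 5.97, 6.18 and 7.21 in RP11. Again L996 was the lowest group without overlap, with a log2 fold change of -0.88 against PC3 (SE 0.19, edgeR's adjusted p = 0.00558) and -0.68 against RP11 (SE 0.17, edgeR's adjusted p = 0.0142). The call against RP11 was lost without RP11 replicate 3, with values from -0.74 to -0.59.

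MIR34AHG, the host of the p53-induced miR-34a (chromosome 1, 9148011 to 9198906, minus strand), was at 12.1, 12.5 and 11.7 CPM in PC3, 15.9, 12.5 and 12.7 in L996 and 13.3, 18.9 and 16.4 in RP11. RP11 was above PC3 in all libraries, and L996 overlapped both (RP11 vs PC3 log2 0.42, SE 0.12, edgeR's adjusted p = 0.0168). MIR210HG, the host of the hypoxia-induced miR-210 (chromosome 11, 565660 to 568457, minus strand), was at 8.23, 7.84 and 7.88 CPM in PC3, 11.8, 8.75 and 8.82 in L996 and 13.6, 10.5 and 10.4 in RP11. Both plasmid groups lay above PC3, and replicate 1 was the highest of each (RP11 vs PC3 log2 0.53, SE 0.14, edgeR's adjusted p = 0.00682). In L996 it was not called (log2 0.29, SE 0.16, edgeR's adjusted p = 0.214). MIR503HG (chromosome X, 134543337 to 134546632, minus strand) was at 2.53, 3.55 and 2.65 CPM in PC3, 4.27, 3.81 and 3.03 in L996 and 4.25, 6.63 and 4.73 in RP11. RP11 lay above PC3 without overlap, and L996 overlapped both (RP11 vs PC3 log2 0.84, SE 0.22, edgeR's adjusted p = 0.00696).

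The calls of these 3 hosts in RP11 depended on single libraries. MIR34AHG was lost without RP11 replicate 2 or RP11 replicate 3, with log2 values from 0.29 to 0.54, MIR210HG without RP11 replicate 1, from 0.38 to 0.60, and MIR503HG without RP11 replicate 2, from 0.63 to 1.00. All 3 were lost with all 9 libraries in 1 fit, and MIR210HG also with a GC content offset and replicate block together. The other 6 hosts were not called in any of the 3 comparisons, with log2 values between -0.28 and 0.57 in L996 vs PC3, -0.13 and 0.41 in RP11 vs PC3, and -0.44 and 0.20 in L996 vs RP11. MIR137HG had the highest of these in L996, at 3.94, 5.54 and 3.45 CPM in PC3 and 6.19, 6.28 and 6.71 in L996, groups that do not overlap (log2 0.57, SE 0.20, edgeR's adjusted p = 0.0604). It was past the threshold under 8 of 15 alternatives, among them the GC content offset, all 9 libraries in 1 fit and the fits without L996 replicate 1 or PC3 replicate 2, with log2 values from 0.43 to 0.79.

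**Figure D4:**
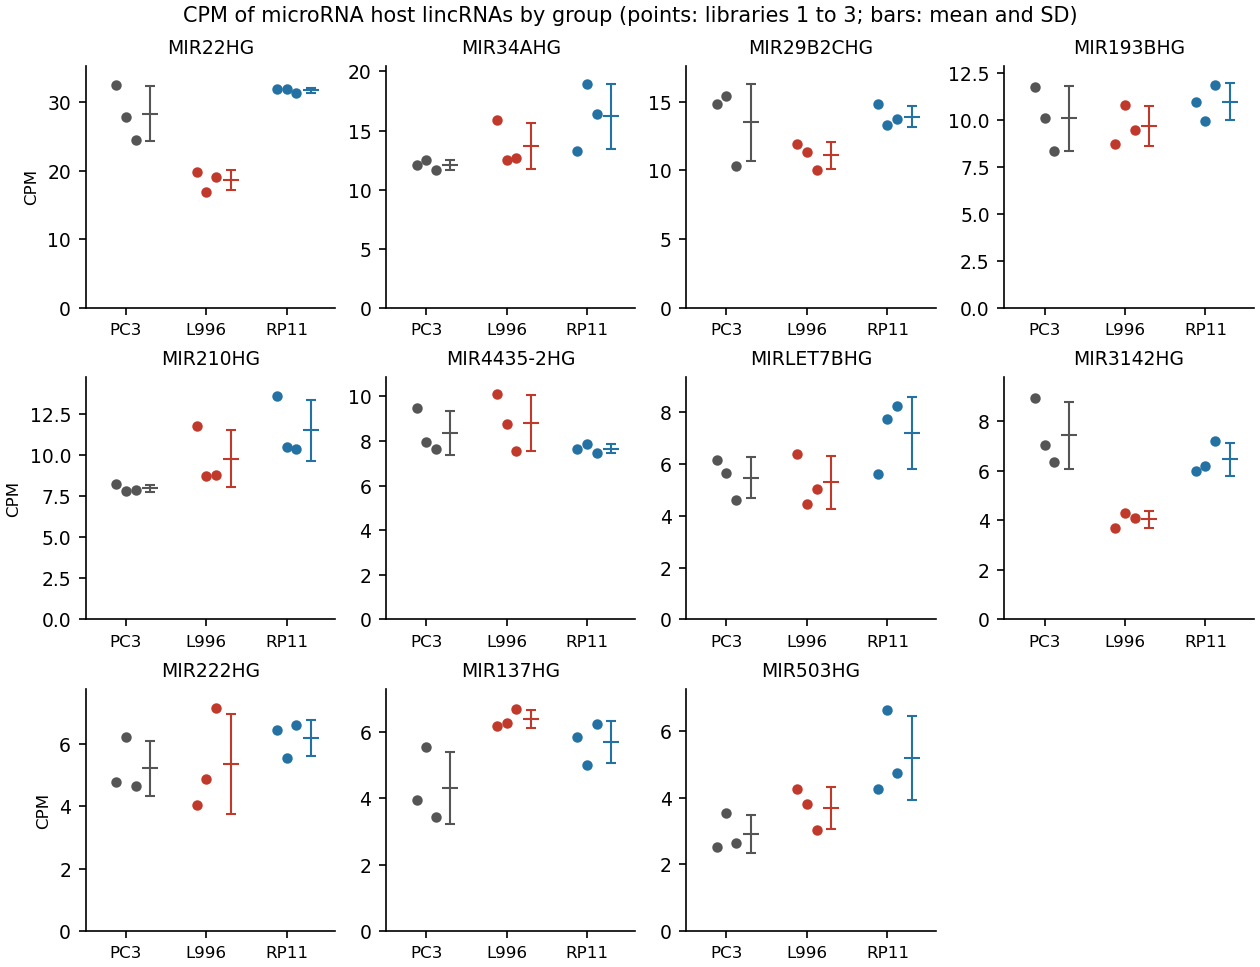
CPM (y axis, from 0) of the 11 microRNA host lincRNAs in PC3, L996 and RP11 (points, replicates 1 to 3 from left to right), with the mean and SD of each group beside them. MIR22HG lies between 16.9 and 19.8 in L996 and at 24.4 or more in the other groups, and MIR3142HG between 3.67 and 4.31 in L996 and at 5.97 or more elsewhere.

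Of the lincRNAs tied to p53, DNA damage and genome stability, 6 were members, NORAD, PURPL, PVT1, MIR34AHG, LINC00467 and TP53TG1. Neither edgeR nor DESeq2 called any in L996 vs PC3 (median log2 0.14) or in L996 vs RP11 (0.13), with 1 and 2 of them higher at edgeR's unadjusted p under 0.05. In RP11 vs PC3, PVT1 and MIR34AHG were higher (median -0.04). PVT1, the neighbour of MYC on chromosome 8 (127794533 to 128101253, plus strand), was at 26.0, 24.6 and 22.8 CPM in PC3, 31.9, 29.7 and 27.2 in L996 and 27.1, 32.9 and 28.8 in RP11. Both plasmid groups lay above PC3 and overlapped each other. It was called in RP11 (log2 0.27, SE 0.09, edgeR's adjusted p = 0.0357) and not in L996 (log2 0.27, SE 0.12, edgeR's adjusted p = 0.113), while L996 vs RP11 was -0.01, so the plasmids were not shown to differ. The call in RP11 was lost without PC3 replicate 2, PC3 replicate 3, RP11 replicate 2 or RP11 replicate 3, with values from 0.19 to 0.33, and also under DESeq2, with all 9 libraries in 1 fit and with library size alone.

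The list of oncogenic lincRNAs described in lung and other carcinomas had 19 members. In L996 CRNDE was higher and MEG3 and LINC01559 lower (median log2 0.07), in RP11 MEG3, PVT1 and LINC00973 were higher and LINC00857 and LINC01559 lower (median -0.08), and in L996 vs RP11 CRNDE was higher and MEG3 lower (median 0.11). MEG3 is best known as a growth suppressor, unlike most of the list. LINC00973 (chromosome 3, 98981058 to 98983096, plus strand) was at 7.88, 6.78 and 5.46 CPM in PC3 and 8.51, 9.69 and 9.82 in RP11 (log2 0.48, SE 0.15, edgeR's adjusted p = 0.0255). LINC00857 (chromosome 10, 80207710 to 80219657, plus strand) was at 10.5, 10.9 and 11.4 CPM in PC3 and 8.62, 8.71 and 7.76 in RP11 (log2 -0.39, SE 0.13, edgeR's adjusted p = 0.0325). Neither overlapped between the groups, and both calls were lost without PC3 replicate 2, PC3 replicate 3, RP11 replicate 2 or RP11 replicate 3, that of LINC00857 also without RP11 replicate 1, with values from 0.34 to 0.61 and from -0.42 to -0.34. Both were also lost with all 9 libraries in 1 fit, LINC00973 with a gene length offset, and LINC00857 under DESeq2, without a filter on low counts and with a GC content offset, alone or with the replicate block, which makes 10 of 15 alternatives for LINC00857.

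Among 5 members linked to oxidative stress, hypoxia or metabolic stress, MIR22HG was lower in L996 than in PC3 and RP11 and MIR210HG was higher in RP11 than in PC3, with medians of -0.01, 0.17 and -0.19 in the 3 comparisons. CYTOR, LINC00941 and LINC01116 were not called. Among 5 members linked to interferon or NF-kB, MIR22HG and MIR3142HG were lower in L996 than in both other groups, and the medians were 0.01, 0.14 and -0.45. In RP11 vs PC3 neither edgeR nor DESeq2 called any of the 5, and 1 was past edgeR's unadjusted p of 0.05. PSMB8-AS1, which overlaps the immunoproteasome gene PSMB8 on the opposite strand (chromosome 6, 32844086 to 32846495, plus strand), was at 4.06, 4.05 and 4.03 CPM in PC3, 4.27, 4.12 and 4.06 in L996 and 5.55, 5.46 and 5.94 in RP11. RP11 was above the other 6 libraries, and its difference from PC3 was just short of the threshold (log2 0.48, SE 0.17, edgeR's adjusted p = 0.0509). HCG11 and LINC01270 were not called.

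On the list of hosts linked to small nucleolar RNAs or translation, EPB41L4A-AS1, which contains SNORA13, and CYTOR were not called in any comparison, by edgeR's adjusted or unadjusted p or by DESeq2, with log2 values from -0.38 to 0.25 and medians of -0.06, 0.01 and -0.07. EPB41L4A-AS1 in L996 vs PC3 ran from -0.52 to -0.20 with 1 library left out and passed the threshold under 1 of 15 alternatives. FTX, a regulator of the X inactivation centre, was at log2 0.19, 0.01 and 0.17 in the 3 comparisons and was not called by either tool or at edgeR's unadjusted p. With 1 library left out FTX ran from 0.03 to 0.34 in L996 vs PC3 and from 0.01 to 0.33 in L996 vs RP11. In each of these it passed the threshold under 1 of 15 alternatives. Of 3 members reported to encode a small protein, CRNDE was called as above, and LINC01234 and LINC00467 were not, with log2 values from -0.23 to 0.33. The medians of these 3 were 0.31, 0.01 and 0.33. None of the 18 lncRNAs of the study's risk models was a member. Of these, 9 had a lincRNA entry, of which 7 were below 450 counts and the others were the plasmid lncRNAs.

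The nearest protein-coding gene was looked up for 28 members, those named for a call by the fixed rule and the list members that were called, the last added after their values were seen. For 16 of these a coding gene overlapped or lay within 10 kb, and 7 of the 16 genes were themselves called in at least 1 comparison. Of the 13211 protein-coding genes tested in all 3 comparisons 43.6% were, so 7 of 16 is close to the share among coding genes in general. AL645608.7 lies 911 bases from HES4, a transcriptional repressor of the Hairy family, on the same strand. HES4 averaged 57.5 CPM in PC3, 30.1 in L996 and 84.7 in RP11, the same order as AL645608.7. It was called in all 3 comparisons, at log2 -0.93 (SE 0.20, edgeR's adjusted p = 0.00573), 0.56 (SE 0.10, edgeR's adjusted p = 0.00157) and -1.50 (SE 0.19, edgeR's adjusted p = 0.000189).

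AC008440.3 lies 83 bases from MYADM, the gene of the myeloid-associated differentiation marker, on the same strand. MYADM averaged 373 CPM in PC3, 260 in L996 and 395 in RP11, and was lower in L996 than in PC3 (log2 -0.52, SE 0.09, edgeR's adjusted p = 0.00128) and than in RP11 (log2 -0.61, SE 0.08, edgeR's adjusted p = 0.00025). OLMALINC lies 8679 bases from SCD, the stearoyl-CoA desaturase gene, which averaged 805 CPM in PC3, 1070 in L996 and 770 in RP11. SCD was higher in L996 than in RP11 (log2 0.47, SE 0.09, edgeR's adjusted p = 0.00253), as OLMALINC was, and also higher than in PC3 (log2 0.41, SE 0.09, edgeR's adjusted p = 0.00692). At such short distances reads that run on from 1 gene could be counted for the other, and their part was not tested.

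Among the other 4 pairs the directions differed from pair to pair. MIR3142HG lies 9850 bases from PTTG1, which encodes securin, on the same strand. PTTG1 averaged 30.3 CPM in PC3, 49.7 in L996 and 31.5 in RP11 and was higher in L996 (log2 0.72 against PC3, SE 0.11, edgeR's adjusted p = 0.00101), where MIR3142HG was lower. SHCBP1, 1235 bases from AC092368.3, was higher in L996 than in PC3 (log2 0.75, SE 0.11, edgeR's adjusted p = 0.000782) and than in RP11 (log2 0.55, SE 0.12, edgeR's adjusted p = 0.00613), whereas AC092368.3 was highest in RP11. Against PC3 the log2 change of AC092368.3 in L996, 0.76, was near that of SHCBP1 but was not called. LINC00857 fell in RP11, and ANXA11, an annexin gene 2138 bases away on the opposite strand, rose (log2 0.26, SE 0.05, edgeR's adjusted p = 0.00132). RASSF7, 1639 bases from MIR210HG on the opposite strand, rose in RP11 as MIR210HG did (log2 0.26, SE 0.08, edgeR's adjusted p = 0.0173). In the remaining 9 pairs the coding gene was not called, among them RAB30 beside RAB30-AS1, BAIAP2 beside BAIAP2-DT and IRX5 beside CRNDE, with log2 values of 0.05, -0.03 and 0.18 in L996 vs PC3.

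**Figure D5:**
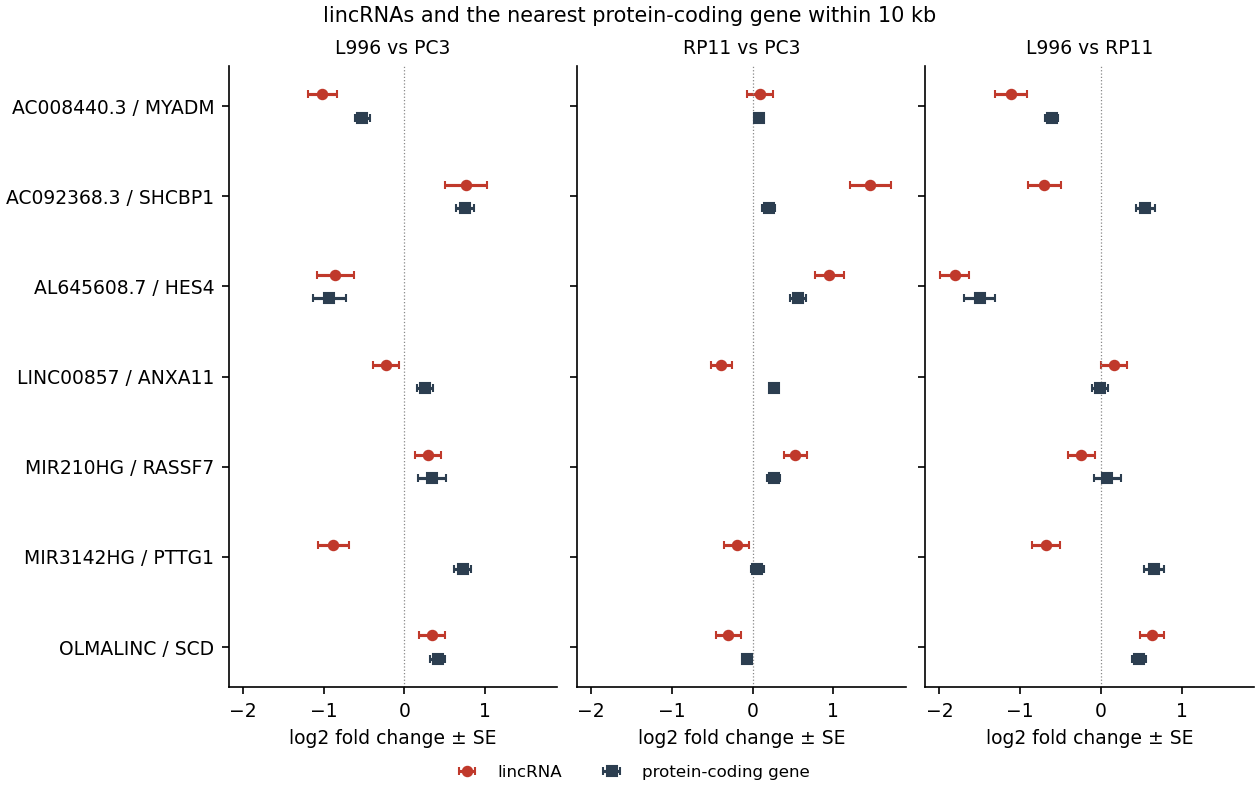
The log2 fold change (x axis, same scale in each panel) with its SE (bars) of 7 lincRNAs (circles) and of the nearest protein-coding gene within 10 kb (squares), for L996 vs PC3, RP11 vs PC3 and L996 vs RP11. AL645608.7 and HES4 lie on the same side of 0 in all 3 panels, and MIR3142HG and PTTG1 lie on opposite sides in the L996 panels, at -0.88 and 0.72 against PC3.

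Length, transcripts, exon blocks and GC content were not criteria of selection. The lincRNA type and the count minimum can still bear on these features of the members. Their median gene length was 3107.5 bases, against 4514 over 16471 genes tested in any comparison, with 3 annotated transcripts against 6, 4 exon blocks against 9, and a GC content of 46.6% against 48.4%. The members called higher and lower had median GC contents of 44.1% and 46.1% in L996 vs PC3. These were 52.7% and 45.5% in RP11 vs PC3, and 44.4% and 49.5% in L996 vs RP11. Of the members 75 overlap no other gene, 69 overlap a gene on the other strand, 58 overlap a gene on their own strand, and 20 have a protein-coding gene on the other strand within 1 kb. Among the members that overlap no other gene, 16% were called in L996 vs PC3, 6.67% in RP11 vs PC3 and 16% in L996 vs RP11. The shares were 17.8%, 8.62% and 16.1% over all members and 22.3%, 19.8% and 21.4% over all genes tested.

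The members lie on 24 chromosomes, with 17 on chromosome 17, 15 on chromosome 7 and 13 each on chromosomes 12 and 19. Within 10 kb of each other there were 8 pairs made of 13 members, of which 3 are described here, chosen after their values were seen. On chromosome 12, AC048341.2 overlaps AC048341.1, a host of let-7i, on the same strand, and the reads of both cannot be cleanly divided. Their log2 values were 0.65 and 0.52 in L996 vs PC3, of which AC048341.2 was called, and 0.47 and 0.45 in L996 vs RP11, of which AC048341.1 was called (edgeR's adjusted p = 0.0459). On chromosome 17, AC103702.2 overlaps LINC02086 on the opposite strand beside HOXB7. AC103702.2 was higher in RP11 than in PC3 (log2 0.38, edgeR's adjusted p = 0.0237), and LINC02086 was lower in L996 than in PC3 (log2 -0.69, edgeR's adjusted p = 0.00929). On chromosome 19, IGFL2-AS1 overlaps AC007785.1 on the opposite strand, and neither was called.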

How the data were processed

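RNA of A549 cells in 3 plasmid groups of 3 libraries was measured by poly(A) sequencing with 150 bp paired-end reads. The deposited counts are raw counts per gene, which the authors obtained with HISAT2 2.0.5 and featureCounts 1.5.0-p3 on GRCh38 per their processing notes. The deposited FPKM were computed by the authors from count and gene length, and the deposited gene length is in bases. Strand setting is not stated, so reads of overlapping genes cannot be told apart. Gene coordinates equal GENCODE 29 for all 58735 genes.

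Libraries held 15272450 to 18125447 counts. Each comparison used its 6 libraries alone in edgeR 4.0.16 (R 4.3.3, TMM, filterByExpr, robust quasi-likelihood F test with group only), with Benjamini-Hochberg adjustment over all genes tested and a call at adjusted p under 0.05. Scripts ran in Python 3.11.15 with pandas 2.3.3 and scipy 1.17.1 and were tested on simulated data. The share of genes called is given beside the share of members, without a test over members.

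The members and lists were chosen with earlier results of these data known. Named by rule were the 10 members highest in FPKM in PC3; per comparison up to 6 higher and 6 lower with the smallest adjusted p among calls whose groups do not overlap and whose log2 change, up or down, reaches 0.58; members of 8 lists (microRNA hosts, p53 and genome stability, oxidative and hypoxic stress, interferon and NF-kB, oncogenic, small nucleolar RNA or translation linked hosts, X inactivation centre, small proteins); members called in opposite directions with the plasmids; the 3 on each side of the 450 counts; and the nearest coding gene within 10 kb. Other members named for their call pattern or overlap were chosen after their values were seen.

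Alternatives were DESeq2 1.42.0, offsets for GC content or gene length (loess, span 0.75), library size alone, other filters, all 9 libraries in 1 fit, a replicate block and each library left out. Levels of 1 member, on the Y chromosome, are not given. Of the cell type markers planned, 2 are not reported. RefSeq and GRCh38.p14 supplied sequences.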

Additional observations from a re-analysis of the deposited data

How the results depend on the processing

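Each comparison was refitted under 15 alternatives, and no named call changed direction under any. In L996 vs PC3 the 13 members called higher became 23 with a GC content offset, where 37.3% of all genes were called. Leaving out 1 library gave 5 to 20 higher and 11 to 20 lower. In RP11 vs PC3 the 11 higher and 4 lower became 3 and 0 with all 9 libraries in 1 fit of edgeR. In that fit 20 and 8 were past an unadjusted p of 0.05 and 2.64% of all genes were called. DESeq2 on the 6 libraries called 9 and 3, and 17.0% of all genes. A gene length offset gave 7 lower. Leaving out 1 library gave 6 to 13 higher and 2 to 6 lower. In L996 vs RP11 the 12 higher and 16 lower became 19 and 29 with a GC content offset, where 36.3% of all genes were called. Leaving out 1 library gave 1 to 27 higher and 11 to 29 lower. The 27 higher in L996 vs RP11 were those without L996 replicate 1, where 29 were lower, as with the GC content offset. The cause was not tested.

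Of the named members called, 11 of 17 in L996 vs PC3, 3 of 13 in RP11 vs PC3 and 9 of 16 in L996 vs RP11 were called under every alternative. Many of these were named for a small adjusted p, so these shares do not stand for all members called. DESeq2 kept all 31 calls of L996 vs PC3, 12 of the 15 of RP11 vs PC3 and 23 of the 28 of L996 vs RP11. With members limited to totals of at least 900 counts, 23.3%, 10.5% and 22.1% were called in the 3 comparisons. All genes tested, without that minimum, were at 22.3%, 19.8% and 21.4%.

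The labels tie samples with the same replicate number by that number alone, and whether they share more is not stated. Over 15641 genes their deviations from the group means correlated at 0.21, 0.03 and 0.12 between L996 and PC3, 0.06, -0.01 and 0.03 between RP11 and PC3, and 0.11, 0.02 and 0.08 between L996 and RP11, for replicates 1, 2 and 3. Pairs of samples with different numbers ran from -0.18 to 0.08. With the replicate block 18 members were higher and 21 lower in L996 vs PC3, 11 and 5 in RP11 vs PC3, and 12 and 16 in L996 vs RP11. Of all genes 28.0%, 21.6% and 23.4% were called with the block, against 22.3%, 19.8% and 21.4% without it. With the block and a GC content offset together 24 members were higher in L996 vs PC3, where 37.2% of all genes were called.

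Members had a median total of 895.5 counts, and the median SE of their log2 changes was 0.17 to 0.19, against 0.11 to 0.15 over all genes. The part of depth in the number of calls was not tested. With 3 libraries per group whose separate cultures are not stated, the spread may be technical.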
